A study of Homo sapiens with 3 samples.

Results

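The genes described here are 8 genes of serine and one-carbon metabolism, chosen by name from the 50868 genes in the deposited files: PHGDH, PSPH, SHMT1, SHMT2, MTHFD1, MTHFD1L, MTHFD2 and ALDH1L2. Each name matched 1 row. They were measured by mRNA sequencing in the human lung adenocarcinoma line NCI-H23, in 2 libraries from cells given siRNA against USP16 and 1 library from cells given control siRNA. USP16 is an enzyme that takes ubiquitin off histone H2A. The knockdown libraries carry the numbers 1 and 2 in the labels, which do not tell a second siRNA from a second culture and give no time after transfection and no siRNA dose. All samples are 1 cell line, so the data describe NCI-H23 only.

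Serine is made from a glycolytic intermediate in a short pathway that PHGDH opens, PSAT1 continues and PSPH completes. SHMT enzymes then split serine into glycine and a one-carbon unit carried on folate, SHMT1 in the cytosol and SHMT2 in mitochondria. In mitochondria MTHFD2 oxidises the folate-bound unit and MTHFD1L releases it as formate, which the cytosolic enzyme MTHFD1 takes up again for purine and thymidylate synthesis. ALDH1L2 is a mitochondrial enzyme that oxidises the unit to carbon dioxide while making NADPH. In cultured human cells several of these genes are targets of the stress-responsive transcription factor ATF4, and the mitochondrial branch is high in many proliferating tumours.

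The libraries held 13956382 and 15071179 counts in the knockdown and 14007161 counts in the control. USP16 itself had 109 and 245 counts in the knockdown libraries against 632 in the control, a mean log2 change of -2.09 ± 0.72 (SD, n = 2) that did not pass over all genes (edgeR, adjusted p = 0.561). It passed with no filter on low counts (edgeR, adjusted p = 0.0188). Of 10 epithelial and lung markers, KRT8 and KRT18 were abundant in every library, NKX2-1 had 4 and 10 counts in the knockdown libraries and 6 in the control, and the surfactant genes SFTPB and SFTPC were at 0 in all 3. Of the 7 markers that passed the filter on low counts, 6 were lower than the control in both knockdown libraries. Of all genes tested, 33.5% were. With library totals alone, the count of markers was 4. Among the 6 were CDH1 with 39 and 93 counts against 142 and KRT7 with 23 and 49 against 81. EPCAM was higher in both, with 161 and 232 counts in the knockdown libraries and 38 in the control, a mean log2 change of 2.14 ± 0.27 (SD, n = 2; edgeR, unadjusted p = 0.00337, adjusted p = 0.757). The summed level of these 10 markers was 240 and 366 CPM in the knockdown libraries and 410.5 CPM in the control. CPM are counts scaled by library totals after these were multiplied by the TMM factors (trimmed means of M-values) given with the processing, not by library totals alone. The 8 markers of blood, endothelial and mesenchymal cells together had 73.6 and 53.9 CPM in the knockdown libraries and 79.4 CPM in the control. Most of that was the collagen gene COL1A1. The blood marker CD14 had 114 and 59 counts in the knockdown libraries and 91 in the control, and PDGFRB had 40 and 72 against 42. VWF had 5 and 4 counts against 6, and DCN had 2 and 2 against 0. CD3E was at 0 in all 3 libraries, and PTPRC and PECAM1 had at most 1 count in a library. The part of these markers in the results was not tested. In bulk RNA, fewer cells of a kind and less RNA per cell cannot be told apart.

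None of the 8 genes passed an adjusted p of 0.05 for knockdown against control (edgeR quasi-likelihood test over 17287 genes, adjusted p = 0.999 for each), where 0.0174% of all genes tested did. At an unadjusted p under 0.05 the count was also 0 of 8, against 4.88% of all genes, and DESeq2 called 0 of 8, against 0.0752%. All 8 passed the filter on low counts. Higher than the control in both knockdown libraries were 4 genes (PHGDH, PSPH, MTHFD1 and ALDH1L2), against 33.4% of all genes tested. Lower in both were 2 genes (SHMT1, and MTHFD2, which was slightly higher in both when libraries were scaled by their totals alone), against 33.5%, and 2 were opposite in sign (SHMT2 and MTHFD1L), against 33.2%. No member was 2-fold higher in both libraries (3.75% of all genes were) or 2-fold lower in both (1.68%). The median of the log2 changes over the 8 genes was 0.15 in knockdown library 1 and 0.01 in knockdown library 2, where the medians of all genes tested lay at 0.00 in each. Both libraries are set against the same control, so the signs in them are not independent.

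With 1 control library the test had 1 residual degree of freedom, and the missed threshold does not show that the levels were alike. The ratios below carry 95% exact binomial intervals that cover counting error only. They compare libraries, not conditions.

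The members differed in how close together the knockdown libraries lay. SHMT2 and ALDH1L2 were more than 2-fold apart between the knockdown libraries, in opposite directions, which is 2 of 8 where 15.7% of all genes tested were. PSPH was 1.45-fold higher in knockdown library 2 than in knockdown library 1, and MTHFD1L was at 0.579 of its level there. PHGDH, SHMT1, MTHFD1 and MTHFD2 had log2 gaps between the knockdown libraries of 0.25 or less in size, below the median gap of 0.421 over all genes tested. USP16 itself was 2.05-fold higher in knockdown library 2 than in knockdown library 1, a log2 gap of 1.02. Whether this bears on the gaps of the members was not tested. Each knockdown library is a single library, so none of these gaps has a replicate.

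**Figure D1:**
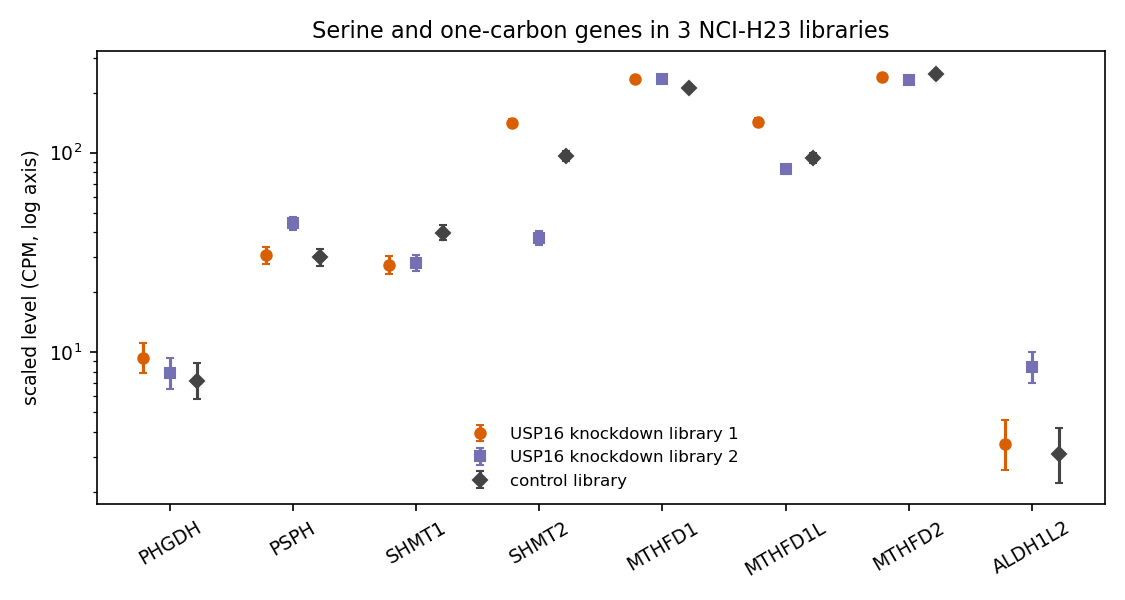
Scaled level of each gene in CPM on a log axis, with the USP16 knockdown libraries left of the control library. Points are single libraries and bars are 95% exact Poisson intervals, which cover counting error only. SHMT2 lies above the control in knockdown library 1 (141 CPM) and below it in knockdown library 2 (37.6 CPM), while MTHFD1 and MTHFD2 lie close together in all 3 libraries.

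Serine synthesis was represented by its opening and closing enzymes. PHGDH encodes phosphoglycerate dehydrogenase, which commits the glycolytic intermediate to serine, and lies on chromosome 1 of hg38 at positions 119648411 to 119744226 on the plus strand. It had 133 and 122 counts in the knockdown libraries and 96 in the control. The scaled levels were 9.38 and 7.84 CPM against 7.21 CPM, with the control lowest and intervals that overlap. The ratio to the control was 1.30 (0.994 to 1.71) in knockdown library 1 and 1.09 (0.826 to 1.44) in knockdown library 2, so at these counts neither library could be told from the control by counting error alone. The mean log2 change was 0.25 ± 0.18 (SD, n = 2).

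PSPH encodes phosphoserine phosphatase, the last step to serine, on chromosome 7 at positions 56011051 to 56051604 on the minus strand. It had 434 and 690 counts in the knockdown libraries and 398 in the control, or 30.6 and 44.4 CPM against 29.9 CPM. Knockdown library 2 stood above both others, and knockdown library 1 and the control did not separate. Relative to the control it was at 1.02 (0.892 to 1.18) in knockdown library 1 and 1.48 (1.31 to 1.68) in knockdown library 2. The pseudogene PSPHP1 took 17 and 22 counts in the knockdown libraries and 16 in the control.

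PSAT1, the transaminase between these enzymes and no member of the 8, had 1062 and 1176 counts in the knockdown libraries and 752 in the control. Its log2 change was 0.41 in knockdown library 1 and 0.42 in knockdown library 2 (mean 0.41 ± 0.01, SD, n = 2; edgeR, adjusted p = 0.999). All 6 log2 changes of the 3 synthesis genes were above 0, where 33.4% of all genes tested were above the control in both libraries, and none of the 3 genes passed the threshold. Both values of PHGDH and that of PSPH in knockdown library 1 lay within counting error of the control.

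The serine hydroxymethyltransferases differed from each other. SHMT1, the cytosolic enzyme, lies on chromosome 17 at positions 18327860 to 18363563 on the minus strand. It had 389 and 436 counts in the knockdown libraries and 530 in the control, or 27.5 and 28.0 CPM against 39.8 CPM. Both knockdown libraries lay below the control by more than counting error, and they hardly differed from each other. The ratio to the control was 0.690 (0.603 to 0.787) in knockdown library 1 and 0.704 (0.619 to 0.801) in knockdown library 2. The mean log2 change was -0.52 ± 0.02 (SD, n = 2; edgeR, unadjusted p = 0.237, adjusted p = 0.999), where the SD holds nothing of how the lone control might vary. Among all genes tested, 17.3% had a lower mean change.

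SHMT2, the mitochondrial enzyme, lies on chromosome 12 at positions 57229327 to 57234935 on the plus strand. It had 2002 and 584 counts in the knockdown libraries and 1286 in the control, or 141 and 37.6 CPM against 96.6 CPM. Knockdown library 1 was the highest and knockdown library 2 the lowest, with the control between them. Relative to the control it was at 1.46 (1.36 to 1.57) in knockdown library 1 and 0.389 (0.352 to 0.429) in knockdown library 2, where 8.97% of all genes tested were 2-fold or more below the control. The level in knockdown library 2 was 0.266 (0.242 to 0.292) of that in knockdown library 1, a log2 gap of -1.91, and 97.4% of all genes tested had a smaller gap. The mean log2 change was -0.41 ± 1.35 (SD, n = 2), smaller than the spread between the knockdown libraries. At 1290.7 counts on average this gap is far beyond counting error. Of the 11236 genes that averaged 100 counts or more, 10.4% were 2-fold or more apart.

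The MTHFD family was represented by 3 genes. MTHFD1, the trifunctional cytosolic enzyme, lies on chromosome 14 at positions 64388031 to 64463457 on the plus strand. It had 3301 and 3642 counts in the knockdown libraries and 2809 in the control, or 233 and 234 CPM against 211 CPM. The knockdown libraries hardly differed, and both lay slightly above the control. The ratios of 1.10 (1.05 to 1.16) and 1.11 (1.06 to 1.17) exceeded counting error, and the mean log2 change was 0.15 ± 0.01 (SD, n = 2; edgeR, adjusted p = 0.999).

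MTHFD1L, its mitochondrial relative that yields formate, lies on chromosome 6 at positions 150865549 to 151101887 on the plus strand. It had 2023 and 1285 counts in the knockdown libraries and 1250 in the control, or 143 and 82.6 CPM against 93.9 CPM. Knockdown library 1 stood above both others, as it did for SHMT2, and knockdown library 2 lay below the control. The ratio to the control was 1.52 (1.42 to 1.63) in knockdown library 1 and 0.880 (0.813 to 0.952) in knockdown library 2.

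MTHFD2, the mitochondrial dehydrogenase upstream of it, lies on chromosome 2 at positions 74198562 to 74217565 on the plus strand. It had 3402 and 3583 counts in the knockdown libraries and 3292 in the control, or 240 and 230.4 CPM against 247 CPM. The 3 libraries were close together, with the control highest. Relative to the control it was at 0.971 (0.925 to 1.02) in knockdown library 1 and 0.932 (0.888 to 0.977) in knockdown library 2. The mean log2 change of -0.07 ± 0.04 (SD, n = 2) became 0.04 when libraries were scaled by their totals alone, a scaling that moves the median of all genes to 0.10 in knockdown library 1 and 0.11 in knockdown library 2.

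ALDH1L2, which oxidises the folate-bound unit in mitochondria, lies on chromosome 12 at positions 105019784 to 105084577 on the minus strand. It had 49 and 131 counts in the knockdown libraries and 41 in the control, or 3.46 and 8.42 CPM against 3.08 CPM. Knockdown library 2 stood above both others, and knockdown library 1 and the control did not separate. The ratio to the control was 1.12 (0.726 to 1.74) in knockdown library 1 and 2.74 (1.91 to 3.99) in knockdown library 2, where 9.94% of all genes tested were 2-fold or more above the control. The mean log2 change was 0.79 ± 0.88 (SD, n = 2; edgeR, unadjusted p = 0.2, adjusted p = 0.999). ALDH1L1, its cytosolic counterpart, had 25 and 91 counts in the knockdown libraries and 22 in the control, so it too was high in knockdown library 2 alone. It was chosen after its values were seen.

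Some of these genes share exonic sequence with a gene on the opposite strand, and whether reads were counted by strand is not given in the sources used here. MTHFD2 shares 1324 exonic bases with SLC4A5, which had 37 and 172 counts in the knockdown libraries and 39 in the control. SHMT1 shares 196 with SMCR8 (1218 and 1295 against 1455 counts), MTHFD1 shares 178 with ZBTB25 (152 and 270 against 197), and ALDH1L2 shares 145 with C12orf45 (122 and 106 against 100). SHMT2 shares 33 with NDUFA4L2 (3 and 16 against 5). Other opposite-strand overlaps were with genes that held few counts. They were 756 bases of MTHFD1 with CTD-2555O16.4 (4 and 7 counts in the knockdown libraries against 4) and a shorter stretch with CTD-2555O16.2 (0 and 1 against 5), 427 bases of SHMT2 with RP11-123K3.9 (2 and 0 against 0), and 295 bases of MTHFD2 with RP11-287D1.3 (12 and 7 against 0). The 10 annotated pseudogenes of the members together held 43 and 58 counts in the knockdown libraries and 42 in the control, so they took few reads.

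**Figure D2:**
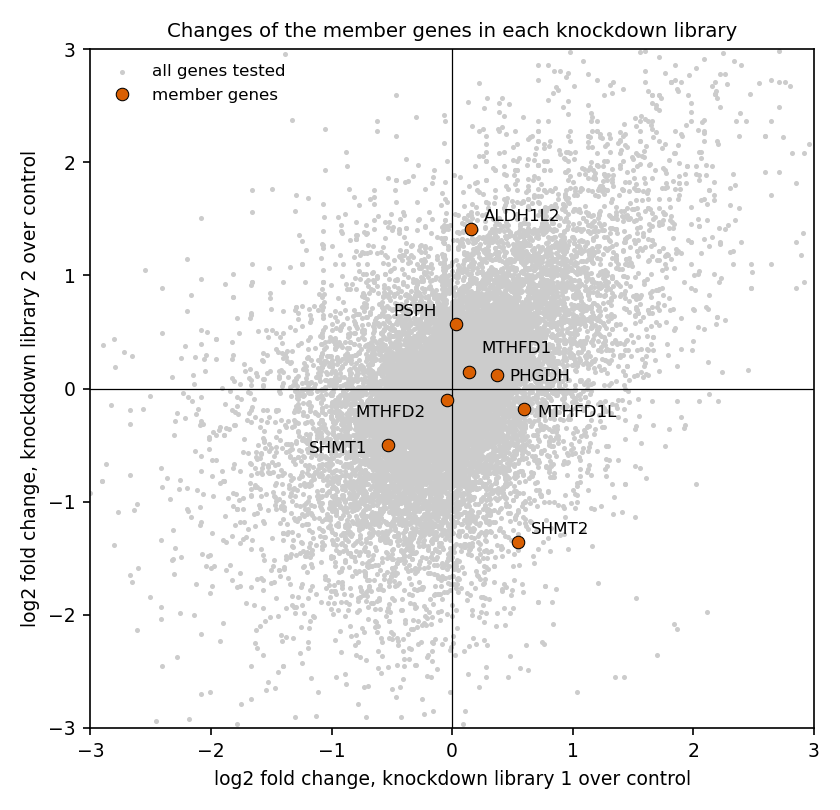
Log2 fold change over the control in knockdown library 1 (horizontal axis) and knockdown library 2 (vertical axis) for the 8 genes, with all genes tested in grey. The axes end at 3 on the log2 scale, which leaves 117 genes outside. SHMT2 lies far below the horizontal zero line at 0.55 and -1.36, and ALDH1L2 lies above it at 0.16 and 1.41. Both axes use the same control library.

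Levels of different genes were compared per kilobase of the longest principal transcript in GENCODE release 29. In the control the order was MTHFD1 (67.3 CPM per kilobase), MTHFD2 (55.5), SHMT2 (38.1), MTHFD1L (26.1), SHMT1 (16.2), PSPH (13.7), PHGDH (2.79) and ALDH1L2 (0.408). In knockdown library 1 SHMT2 (55.7 CPM per kilobase) and MTHFD2 (53.9) were side by side behind MTHFD1 (74.3). In knockdown library 2 SHMT2 (14.8) came after PSPH (20.4) and MTHFD1L (22.9). By this length ALDH1L2 held the lowest place and PHGDH the one above it in all 3 libraries. With all annotated exons as the length, MTHFD2 came before MTHFD1 in the control (50.8 against 22.5 CPM per kilobase). PSPH then came before SHMT1 in the control (10.8 against 5.47). In knockdown library 2 only, ALDH1L2 (0.990) then came before PHGDH (0.851). The order of top and lower genes thus depends on the length used. The longest principal transcript of PHGDH has 2585 bases, while its annotated exons cover 9217.

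Together the 8 genes took 11733 and 10473 counts in the knockdown libraries and 9702 in the control. Their summed level was 828 and 673 CPM against 729 CPM, with the control between the knockdown libraries. SHMT2 made up 17.1% of these counts in knockdown library 1, 5.58% in knockdown library 2 and 13.3% in the control. MTHFD1 and MTHFD2 were the largest parts in every library.

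Ratios between the mitochondrial and cytosolic enzymes do not depend on how libraries are scaled. SHMT2 over SHMT1, per length, was 5.0 (4.48 to 5.59) in knockdown library 1 and 1.30 (1.15 to 1.48) in knockdown library 2, against 2.36 (2.13 to 2.61) in the control. The ratio was thus 2.12 times that of the control in knockdown library 1 and 0.552 times in knockdown library 2. MTHFD1L over MTHFD1 was 0.533 (0.504 to 0.564) and 0.307 (0.288 to 0.327) in the knockdown libraries against 0.387 (0.362 to 0.414) in the control, with the libraries in the same order. MTHFD2 over MTHFD1 was 0.725 (0.691 to 0.761) and 0.692 (0.661 to 0.725) in the knockdown libraries and 0.825 (0.784 to 0.868) in the control. That last ratio was the only one of the 3 that was lower than in the control in both knockdown libraries, and MTHFD2 over MTHFD1L, at 1.36 and 2.26 against 2.13, was not. The differences between these ratios were not tested over samples.

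**Figure D3:**
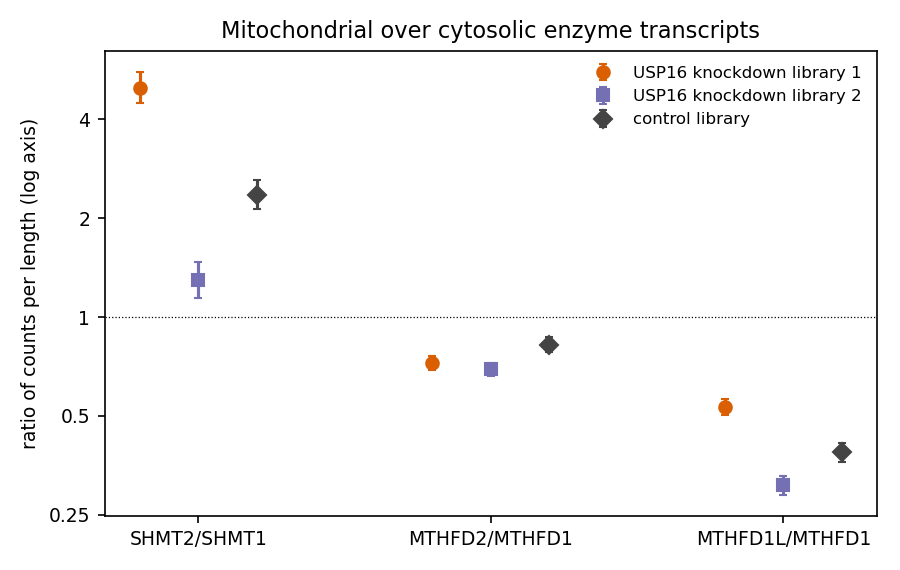
Ratio of counts per length for 3 pairs of mitochondrial over cytosolic enzymes, on a log axis, in each knockdown library and the control. Bars are 95% exact binomial intervals, which cover counting error only. SHMT2 over SHMT1 was 5.0 in knockdown library 1 and 1.30 in knockdown library 2, on either side of the 2.36 of the control.

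RefSeq promoter sequences, 250 bases before to 50 bases after the annotated start, were at hand for 5 of the 8 genes (PHGDH, SHMT1, MTHFD1, MTHFD1L and MTHFD2). Those of PSPH, SHMT2 and ALDH1L2 were not used here. The 5 sequences were searched on both strands for the amino acid response motif TGATGCAA (TTGCATCA on the other strand) that C/EBP and ATF4 factors bind, the E-box CACGTG bound by MYC, the cyclic AMP response motif TGACGTCA and the CCAAT box. The MTHFD family is printed because MTHFD1L had a larger log2 gap between the knockdown libraries (-0.79) than MTHFD1 (0.01) and MTHFD2 (-0.06). Of all genes tested, 75.9% had a smaller gap than MTHFD1L. The choice rests on these values, and a link between the motifs and the gap was not tested. Capitals mark the amino acid response motif and the E-box, and the sequences are those of GRCh38.p14, written 5′ to 3′ on the gene's strand, which is the plus strand for all 3. MTHFD1L is at chr6:150866236-150866535, MTHFD1 at chr14:64388103-64388402 and MTHFD2 at chr2:74198365-74198664.
MTHFD1L: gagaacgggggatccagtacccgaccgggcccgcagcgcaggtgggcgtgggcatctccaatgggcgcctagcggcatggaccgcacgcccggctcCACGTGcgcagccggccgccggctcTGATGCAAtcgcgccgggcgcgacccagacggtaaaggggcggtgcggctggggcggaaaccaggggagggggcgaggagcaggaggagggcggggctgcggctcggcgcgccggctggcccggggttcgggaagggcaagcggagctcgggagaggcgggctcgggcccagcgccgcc
MTHFD1: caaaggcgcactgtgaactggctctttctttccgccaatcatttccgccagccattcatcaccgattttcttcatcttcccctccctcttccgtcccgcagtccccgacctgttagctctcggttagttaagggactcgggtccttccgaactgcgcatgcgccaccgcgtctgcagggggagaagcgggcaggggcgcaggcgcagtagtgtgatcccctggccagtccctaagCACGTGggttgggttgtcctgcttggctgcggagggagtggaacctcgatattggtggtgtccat
MTHFD2: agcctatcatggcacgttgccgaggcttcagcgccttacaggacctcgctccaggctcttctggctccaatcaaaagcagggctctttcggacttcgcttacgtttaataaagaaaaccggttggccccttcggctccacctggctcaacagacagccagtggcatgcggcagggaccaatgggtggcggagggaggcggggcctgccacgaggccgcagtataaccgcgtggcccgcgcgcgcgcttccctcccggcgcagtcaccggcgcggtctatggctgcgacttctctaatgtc
MTHFD1L held the amino acid response motif 129 bases before its start and an E-box 154 bases before it, with no overlap between them. Of the 4 starts the table lists for MTHFD1L, 3 hold the amino acid response motif in their window, and the first listed is printed. MTHFD1 held an E-box 15 bases before its start. Of all 35116 promoters in the table, 0.866% held the amino acid response motif and 7.26% the E-box. The cyclic AMP response motif was in 0 of the 5 (1.85% of all promoters), and a CCAAT box was in all 5 (34.6% of all promoters), in MTHFD2 at 184 and 74 bases before the start. A match describes these letters and shows no binding.

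Among regulators of the pathway, ATF4, the factor that binds the amino acid response motif, had 4331 and 5428 counts in the knockdown libraries and 3333 in the control (log2 changes 0.29 and 0.48, mean 0.38 ± 0.14, SD, n = 2). DDIT3, a factor induced by ATF4, had 353 and 619 counts against 173, with a mean of 1.27 ± 0.48 (SD, n = 2). MYC had 50 and 201 counts against 40, and its relative MYCN had 129 and 281 against 304. CEBPB, a partner of ATF4, had 1065 and 1768 against 2077 counts. Of the 8 regulators, 4 were higher and 3 lower in both libraries (4 and 2 with library totals alone). Of all genes tested, 33.4% were higher and 33.5% lower in both. Of these regulators 0 passed the threshold, and DDIT3 had an unadjusted p of 0.0224 and an adjusted p of 0.999 (edgeR).

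The wider pathway was described with 66 related genes in 6 lists, of which 62 passed the filter on low counts. Of the 62, 0 passed over all genes in either direction (edgeR). At an unadjusted p under 0.05 there were 2, CTH and DDIT3, against 4.88% of all genes tested. DESeq2 called 0, with 2 at an unadjusted p under 0.05, against 2.97% of all genes tested. Higher in both libraries were 19 of 62, against 33.4% of all genes tested, and lower in both 22 of 62, against 33.5% (20 and 19 genes with library totals alone), with medians of -0.06 in knockdown library 1 and -0.13 in knockdown library 2. Of the 62, 12 (19.4%) were 2-fold or more apart between the knockdown libraries, against 15.7% of all genes tested.

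**Figure D4:**
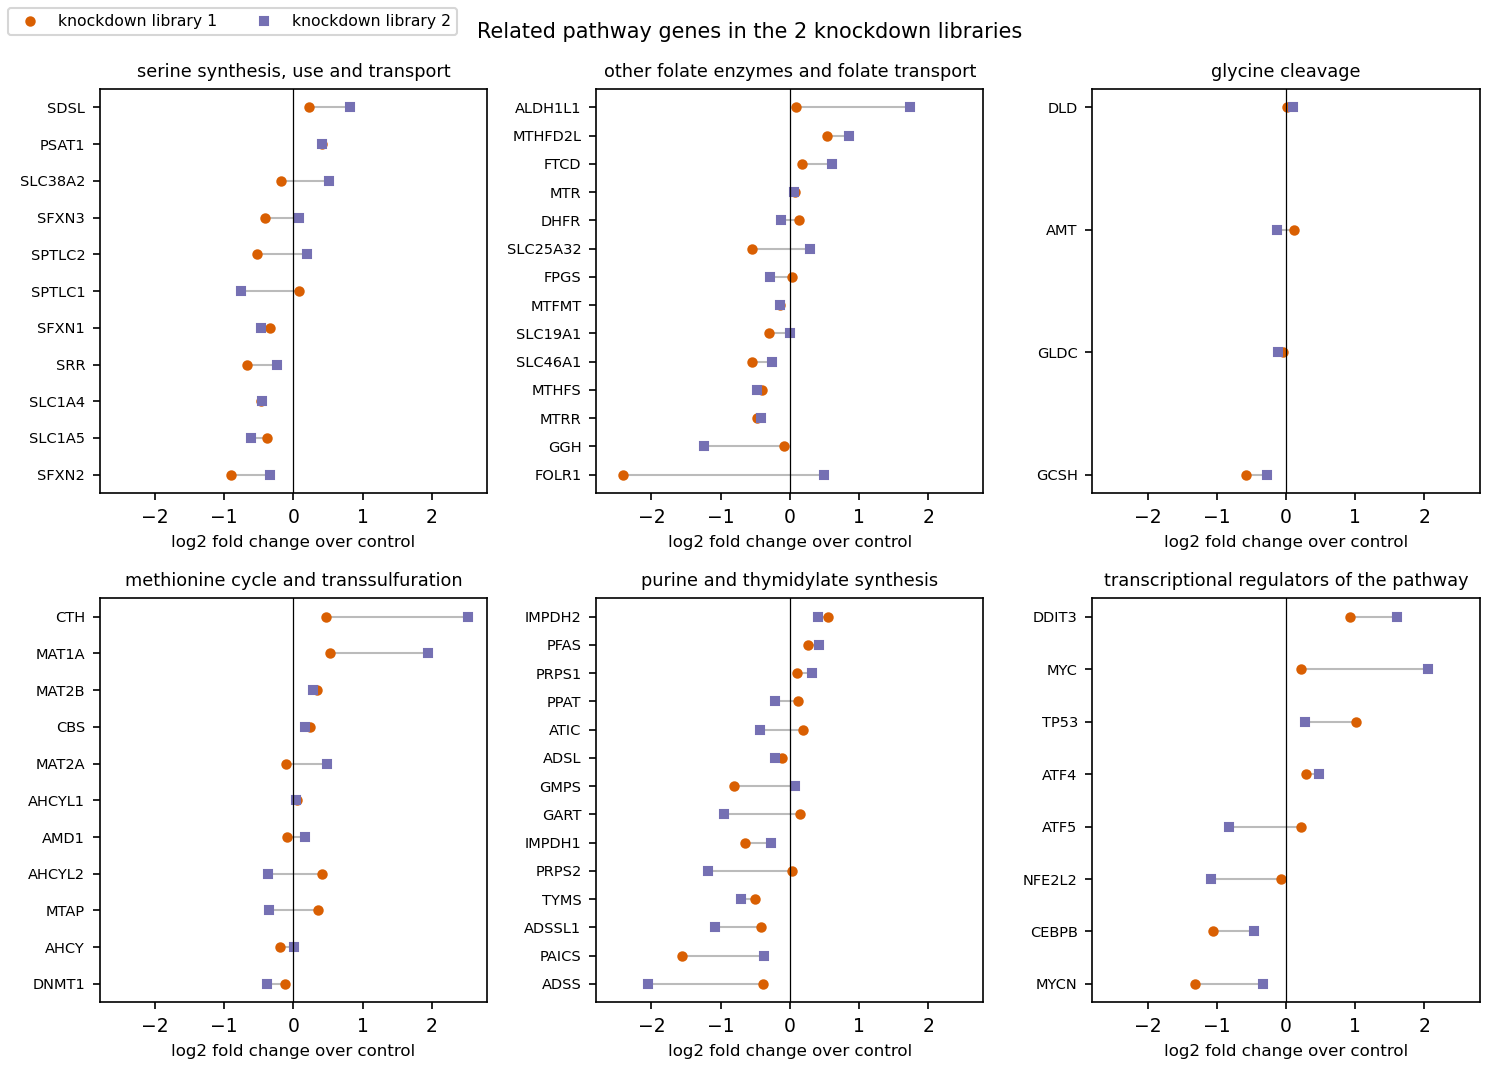
Log2 fold change over the control for the related genes that passed the filter, in 6 lists, with knockdown library 1 as circles and knockdown library 2 as squares joined by a line. Lines are short for genes such as PSAT1 (0.41 and 0.42) and long for CTH (0.47 and 2.52). FOLR1, with 0 counts in knockdown library 1, is placed there by the prior count.

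Of 11 genes of serine synthesis, use and transport that were tested, 5 were lower and 2 higher in both libraries, and 0 passed. The shares of all genes tested were 33.5% lower and 33.4% higher in both. Medians of the list were -0.38 in knockdown library 1 and -0.24 in knockdown library 2. SLC1A5, a transporter of glutamine and other neutral amino acids, had 1459 and 1362 counts in the knockdown libraries and 1786 in the control (mean log2 change -0.50 ± 0.16, SD, n = 2). SFXN2, a mitochondrial carrier related to the serine carrier SFXN1, had 145 and 235 counts against 255. SDSL, a serine dehydratase relative with 45 and 76 counts against 36, was the highest of the list.

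Of the remaining folate genes, 4 of 14 were higher in both libraries, 5 lower in both (4 and 4 with library totals alone) and 0 past the threshold. Among all genes tested, 33.4% were higher and 33.5% lower in both. MTHFD2L, a paralog of MTHFD2, had 150 and 205 counts in the knockdown libraries and 96 in the control, a mean log2 change of 0.70 ± 0.22 (SD, n = 2). It was thus higher in both libraries under every scaling tried, unlike MTHFD2. MTR, methionine synthase, had 1439 and 1565 counts against 1281. GGH, which trims glutamate chains off folates, had 887 and 439 counts against 890, and MTRR, which keeps methionine synthase active, had 906 and 1027 against 1180. In glycine cleavage, 0 of 4 passed, DLD had 1939 and 2267 counts against 1807, and GCSH had 134 and 182 against 189.

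Of the 11 genes of the methionine cycle and transsulfuration, 5 lay above and 1 below the control in both libraries (6 and 1 with library totals alone). Over all genes tested, 33.4% lay above and 33.5% below in both. Of the 11 genes, 0 passed. CTH, which makes cysteine from cystathionine, had 153 and 700 counts in the knockdown libraries and 103 in the control, with log2 changes of 0.47 and 2.52 (edgeR, unadjusted p = 0.0275, adjusted p = 0.999). Its level in knockdown library 2 was 4.13-fold that in knockdown library 1. Of all genes tested, 9.94% were 2-fold or more above the control in knockdown library 2. MAT2B, a regulatory subunit of methionine adenosyltransferase, had 906 and 955 counts against 674. DNMT1, a DNA methyltransferase that uses the methyl donor of the cycle, had 3765 and 3448 against 3842, and AHCY, which clears its by-product, had 3691 and 4688 against 3983.

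Purine and thymidylate synthesis, which consumes the one-carbon units, had 6 of 14 genes below the control in both libraries, against 33.5% of all genes. It had 3 above the control in both, against 33.4%, and 0 past the threshold. The medians were -0.04 in knockdown library 1 and -0.32 in knockdown library 2. ADSS, an enzyme on the branch to AMP, had 1022 and 354 counts in the knockdown libraries and 1261 in the control, and PAICS, a bifunctional purine enzyme, had 2118 and 5288 against 5856. These genes were lowest in different knockdown libraries. IMPDH2, which opens the branch to GMP, had 3074 and 3044 counts against 1964 (mean log2 change 0.48 ± 0.10, SD, n = 2), and PFAS, an earlier purine enzyme, had 1608 and 1961 against 1253. TYMS, thymidylate synthase, had 3211 and 3066 counts against 4263 (mean -0.60 ± 0.14, SD, n = 2), and it is named after its values were seen.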

How the data were processed

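The authors deposited whole-number counts of reads per gene, 1 file per library, and the values show no normalization. HISAT2 2.0.4, StringTie 1.3.0 and hg38 are named, without their roles, in the submitters' processing notes. How reads were counted, and whether by strand, is not given in the sources used here. DNase-treated total RNA went into an mRNA library kit, per the labels' protocols. The header of the second knockdown library carries the number 6 where its label has 2, and it was used as labelled. Of the gene identifiers, 50111 (98.5%) matched GENCODE release 29. No label says that the knockdown libraries are separate cultures, so p-values cover only the spread between the knockdown libraries, which may be technical. The edgeR fit shares this spread across genes, so the p-value of a gene does not follow its own SD alone. The p-values hold nothing of how the lone control might vary.

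Genes were filtered with filterByExpr and scaled by TMM, trimmed means of M-values (factors 1.02 and 1.03 for the knockdown libraries and 0.952 for the control). They were tested in R 4.3.3 with edgeR 4.0.16, by its quasi-likelihood test, adjusted over 17287 genes by Benjamini-Hochberg. These steps were tested on simulated data, with large changes set in well-counted genes and no difference set between the knockdown libraries. Such data do not show how the test performs at the spread of these libraries. Log2 changes per library use a prior count of 2. Alternatives were DESeq2 1.42.0, median-ratio size factors, library totals, no filter, a mean of 100 counts or more, a prior count of 10 and, in turn, only 1 of the knockdown libraries. Union exon length was added after seeing the data. The members, lists and tests were chosen with earlier results of these data known. One related gene is not reported here and was left out of the list counts after they had been made. Named genes were the 8 members, USP16, PSAT1, ATF4 and, per related list, the 2 highest and 2 lowest mean changes at a mean of at least 50 counts, while ALDH1L1, TYMS and the cell type markers were named outside this rule after their values were seen. Likeness of pattern was not ranked, since 3 libraries cannot rank it. Intervals are 95% exact Poisson or binomial and cover counting error only.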

Additional observations from a re-analysis of the deposited data

How the results depend on the processing

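The count of members past the threshold was 0 and that of related genes 0 with DESeq2, with median-ratio size factors, without the filter and with a minimum mean of 100 counts. Over all genes 3 passed in edgeR, against 13 with DESeq2, 70 without the filter and 1 with a minimum mean of 100 counts. The mean log2 change of USP16 ranged from -2.60 to -1.58 when a knockdown library was left out. The median over the members, 0.18, was 0.29 with library totals alone and between 0.01 and 0.15 when a knockdown library was left out. The median over the related genes, -0.13, was -0.02 with library totals alone and between -0.13 and -0.06 when a knockdown library was left out. Of 24 member values under other scalings and a prior count of 10, 21 moved by less than the SD between the knockdown libraries. The others are SHMT1 (-0.41), MTHFD1 (0.25) and MTHFD2 (0.04), all with library totals alone. Leaving out a knockdown library turned the sign of SHMT2 (-1.36 or 0.55) and MTHFD1L (-0.18 or 0.60). Without either one there is no test, since 1 library is left on each side.

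With union exon length the ratios moved because the lengths did. SHMT2 over SHMT1 became 7.75 and 2.02 in the knockdown libraries and 3.65 in the control. MTHFD2 over MTHFD1 became 1.98 and 1.89 against 2.26, and MTHFD1L over MTHFD1 1.15 and 0.659 against 0.831. The factor between libraries within a pair does not depend on length. Adding pseudogene counts left each ratio within its interval. No paired analysis was possible because there is only 1 control library. Depth limits ALDH1L2 and PHGDH most.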
